A study of Mus musculus with 4 samples.

Results

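The genes of the respiratory chain that are encoded in the nucleus were followed across 4 RNA-seq libraries of sorted mouse spleen natural killer (NK) cells. The set was defined by name: protein-coding mouse genes whose RefSeq symbol on GRCm38 begins with Nduf, Uqcr, Atp5 or Cox4 to Cox8, together with Sdha, Sdhb, Sdhc, Sdhd and Cyc1. The names gave 97 genes, of which 89 reached 1 FPKM (sequenced fragments scaled to transcript length and to library size) in at least 1 library, among 17723 genes listed in any library. Of the 89 genes, 80 encode subunits: 36 of complex I, 4 of complex II, 9 of complex III, 14 of complex IV and 17 of complex V. The other 9 are 8 assembly factors of complex I (Ndufaf1 to Ndufaf8) and Cox7a2l, a factor that helps to join complexes into supercomplexes. Ndufa4 was counted with complex IV, where its protein resides despite its name.

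The respiratory chain lies in the inner mitochondrial membrane. Complex I takes electrons from NADH and complex II takes them from succinate, complex III passes them from ubiquinol to cytochrome c, and complex IV passes them to oxygen. Complexes I, III and IV pump protons, and complex V, the ATP synthase, uses the proton gradient to make ATP. Each of these complexes except complex II also holds subunits encoded in mitochondrial DNA, which were not analysed here. In NK cells, oxidative phosphorylation supports both resting energy supply and the rise in metabolism that follows cytokine activation.

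The libraries came from C57BL/6J mice aged 6 to 8 weeks, and each represents 1 combination of NK-cell subset and spleen. DNAM-1 (CD226), an activating receptor of NK cells encoded by Cd226, separated DNAM-1+ from DNAM-1- cells. Normal spleens were labelled day 0, and leukaemic spleens were labelled day 17 of an MLL-AF9-driven acute myeloid leukaemia (AML) that arose from transplanted GFP+ leukaemia cells in recipients that were not irradiated. The labels state neither how many mice each library pooled nor any further gate of the sort. The study set out to compare the transcriptomes of the subsets in AML. With 1 library in each group, no difference within 1 spleen or within 1 subset had a replicate check.

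Depth was close to equal, at 9000000 to 9400000 fragments per library as estimated from the steps between low FPKM values. Cd226 stood at 38.6 and 36.1 FPKM in the DNAM-1+ libraries of normal and AML spleen and at 0.45 and 0.58 FPKM in the DNAM-1- libraries. All 7 NK-cell markers examined were present in every library, with summed levels of 2475 to 2837 FPKM, and 3 of them rose in DNAM-1+ cells by the limma test described with the subset comparison. Markers of other cells differed between the subsets. The 8 B-cell markers summed to 202 and 223 FPKM in DNAM-1+ cells and to 975 and 939 FPKM in DNAM-1- cells of normal and AML spleen, and all 8 fell in DNAM-1+ cells. The 10 monocyte and macrophage markers summed to 66.9 and 90.3 FPKM against 499 and 499 FPKM, and all 9 tested fell. The 4 plasma-cell markers summed to 16.4 and 24.8 FPKM against 136 and 240.2 FPKM, with Tnfrsf17 at 0 in the first of these, and both of those tested fell. The 6 neutrophil markers summed to 86.8 and 58.5 FPKM against 151 and 115 FPKM, and all 5 tested fell. The 8 T-cell markers summed to 64.9 and 61.3 FPKM against 26.5 and 22.8 FPKM, and 3 of the 4 tested rose. The 6 leukaemia and progenitor markers summed to 9.33 to 29.6 FPKM, with none at 0. Most of this sum was Kit, the 1 tested, which rose in DNAM-1+ cells (17.9, 7.86, 25.3 and 9.78 FPKM, normal spleen first and DNAM-1+ before DNAM-1- in each). The other 5 markers were at 2.29 FPKM or less, and Mpo, the highest of them in AML spleen, stood at 0.25, 0.26, 1.58 and 2.29 FPKM. In such bulk libraries, fewer cells of a type and less RNA per cell cannot be told apart, and the part of these other cells in the subset differences given here was not tested.

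All 5 complexes were expressed in all 4 libraries. The 89 genes together made up 1.44%, 1.36%, 1.45% and 1.34% of all FPKM in the 4 libraries (normal spleen first, DNAM-1+ before DNAM-1-, then AML spleen likewise), the order kept wherever 4 values follow. Complex V had the largest summed level, at 2140.2, 1961, 2075 and 1918 FPKM. Its gene Atp5h, for a subunit of the peripheral stalk that holds the catalytic head still, was the most abundant of all 89 on this length-corrected scale, at 255, 240.0, 238 and 232 FPKM. Complex I summed to 1720, 1599, 1719 and 1538 FPKM, and its most abundant gene was the accessory subunit gene Ndufa3, at 185, 175, 180.3 and 158 FPKM. Complex IV summed to 1331, 1293, 1354 and 1302 FPKM and had Cox6b1, at 211, 181, 196 and 176 FPKM, highest by mean level and in both DNAM-1+ libraries, while Cox4i1 was highest in both DNAM-1- libraries. For complex III the sums were 662, 618, 637 and 593 FPKM, and Uqcrh, which encodes the hinge protein next to cytochrome c1, stood highest at 197, 165, 188 and 174 FPKM. Complex II summed to 175, 177, 186 and 164 FPKM. For the 4 complexes other than II, the sum in DNAM-1+ cells was above that in DNAM-1- cells in both spleens.

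**Figure D1:**
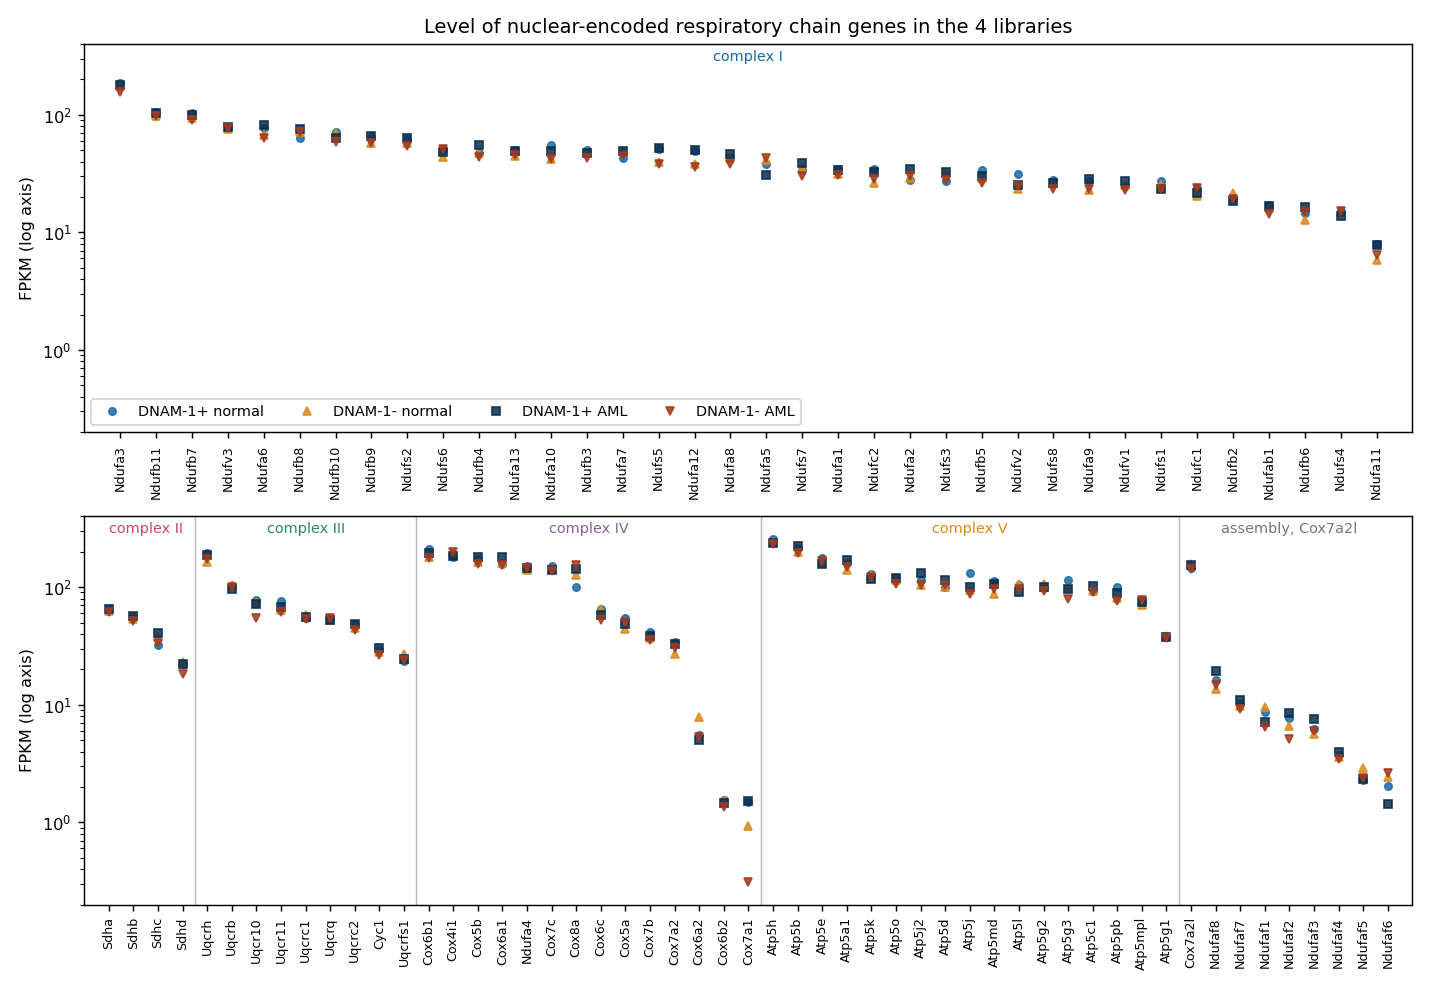
FPKM on a log axis of each of the 89 genes in the 4 libraries (1 point per library, no error since each group is 1 library), ordered by mean level within each complex. By mean level Ndufa3, Sdha, Uqcrh, Cox6b1 and Atp5h head their complexes, the 4 points of most genes nearly coincide, and the assembly factors and the minor isoforms of complex IV lie lowest.

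The order of the genes by level was almost the same in every library. Pearson correlations of log2 levels between pairs of libraries lay between 0.989 and 0.993 over the 84 genes that reached 5 FPKM in at least 1 of them. These correlations are across genes, which are not independent replicates, and they include the shared effect of each gene's length and sequence on its measured level. Complex I assembly factors had lower levels than nearly all of the subunits they help to join, from Ndufaf6, at 2.04, 2.43, 1.44 and 2.62 FPKM, to Ndufaf8, at 16.3, 13.5, 19.4 and 14.8 FPKM. Among complex I subunits, Ndufa11 was lowest at 7.96, 5.78, 7.86 and 6.38 FPKM.

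Isoform use of complex IV was that of the widely expressed forms. Cox6a1 made up 95.3% to 97.3% of the summed level of Cox6a1 and Cox6a2, and Cox7a2 made up 95.6% to 99.0% of the sum of Cox7a1 and Cox7a2. Likewise, Cox6b1 held 99.1% to 99.3% of the sum with Cox6b2. Cox4i2, the hypoxia-responsive alternative to Cox4i1, and Cox8b, the heart and muscle alternative to Cox8a, were listed in none of the 4 libraries. Cox6a2 and Cox7a1 are best known from heart and skeletal muscle, and Cox6b2 from testis. Cox6a2 stood at 5.48, 7.93, 5.05 and 5.29 FPKM, and its gene overlaps Itgad, an integrin gene listed at 10.8, 9.38, 10.9 and 8.46 FPKM. Strandedness of the library is not given in the sources used here, so reads of overlapping genes may not have been separated. Cox7a1 at 1.5, 0.93, 1.51 and 0.31 FPKM and Cox6b2 at 1.54, 1.56, 1.46 and 1.36 FPKM were the genes closest above the 1 FPKM minimum, and Cox7a1 rests on an estimated 5, 3, 5 and 1 fragments. Below the minimum were Cox4i2, Cox7b2, Cox8b, Cox8c, Ndufa4l2, Ndufb1, Ndufb4b and Ndufb4c, all listed in no library. The annotation behind the values is not given, so an unexpressed gene and a gene left out of it cannot be told apart. No gene of the set had its highest library between 0 and 1 FPKM.

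The subset comparison asked whether DNAM-1+ and DNAM-1- NK cells differed in respiratory chain expression. The differences were small and mostly of 1 direction: 62 of the 89 genes were higher in DNAM-1+ cells in normal spleen and 70 in AML spleen. Among the 11032 protein-coding genes at 1 FPKM or more, 50.0% were higher and 49.7% lower in normal spleen, and 51.3% higher and 48.4% lower in AML spleen. The median log2 ratio of the 89 genes, computed with 1 FPKM added to each value, was 0.08 in normal spleen and 0.14 in AML spleen, against 0.00 and 0.01 over all these genes. In both spleens alike, 52 of the 89 genes were higher in DNAM-1+ cells and 9 were lower, where 36.1% and 34.5% of all these genes were. Gene by gene, the subset ratios of the 2 spleens were only weakly related. Their Pearson correlation was 0.33 and their Spearman rank correlation 0.27 over the 84 genes that reached 5 FPKM. The ratio of a typical member had a 95% counting interval of 0.21 on either side in both spleens. This interval covers counting error only, and the genes of 1 library share that library's composition, so the counts carry no test.

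Few of the ratios were large. In normal spleen, none of the members that reached 5 FPKM differed 1.5-fold, a size passed upward by 3.05% and downward by 6.27% of all genes that reached this level in the higher of the libraries compared. In AML spleen, the assembly factor gene Ndufaf2 alone was past 1.5-fold, where 2.33% of genes were higher and 5.03% lower. Ndufaf2 stood at 7.76, 6.54, 8.51 and 5.15 FPKM, with log2 subset ratios of 0.22 (normal spleen) and 0.63 (AML spleen), and the 95% counting interval of the latter, -0.02 to 1.28, included 0. Below 5 FPKM, Cox7a1 had a log2 ratio of 0.94 in AML spleen with a counting interval of -2.15 to 4.03. No member at 5 FPKM or more reached 2-fold, upward or downward, where 1.28% and 3.97% of all genes did in normal spleen and 0.894% and 3.19% in AML spleen.

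Complexes I, III, IV and V had positive medians in both spleens. Complex I showed a median log2 ratio of 0.12 in normal and 0.17 in AML spleen, with 27 and 30 of its 36 genes higher in DNAM-1+ cells. Complex V had medians of 0.09 and 0.14, with 13 of 17 genes higher in each spleen. The medians of complex III were 0.05 and 0.11 (6 and 7 of 9 genes higher), and those of complex IV were 0.09 and 0.08 (9 of 14 genes higher in each spleen). Complex II was the exception, with a median of -0.01 in normal spleen, where 2 of 4 genes were higher, and 0.21 in AML spleen, where all 4 were. The 7 nuclear-encoded core subunits of complex I, which carry the flavin, the iron-sulfur clusters and the quinone site, had medians of 0.08 and 0.21, and its 29 accessory subunits had 0.14 and 0.14. Scaling the libraries on all protein-coding genes moved the medians over the 89 genes to 0.06 and 0.12. The same scaling moved the medians over all protein-coding genes at 1 FPKM or more to -0.02 and -0.01.

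**Figure D2:**
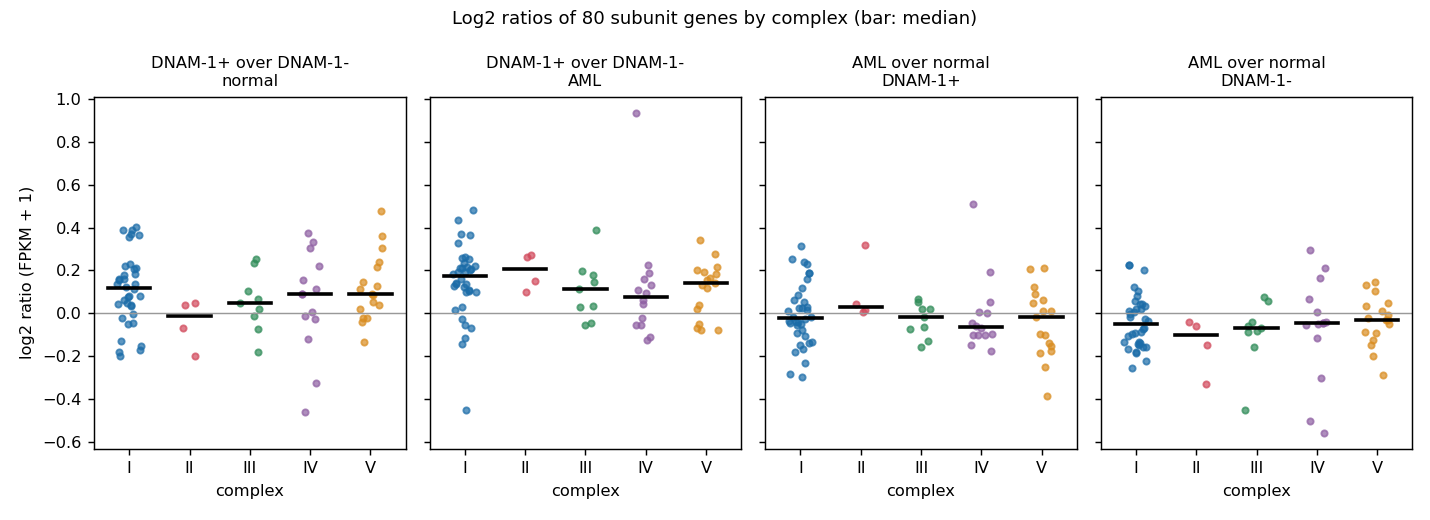
Log2 ratios (FPKM + 1) of the 80 subunit genes by complex in the 4 contrasts, 1 point per gene and a bar at the median. The medians of complexes I, III, IV and V lie above 0 in both subset contrasts, and all 4 complex II genes lie above 0 in AML spleen.

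A model with subset and spleen as additive terms was fitted with limma to all 9074 genes that reached 5 FPKM somewhere, so that the disagreement between the spleens served as the error, with 1 residual degree of freedom moderated over all genes. Of the 84 members tested, 8 rose in DNAM-1+ cells (9.52%) and 0 fell at a Benjamini-Hochberg adjusted p below 0.05, against 7.35% and 8.38% of all genes tested. At an unadjusted p below 0.05, limma gave 24 members higher and 2 lower, against 15.6% and 14.0% of all genes. At the adjusted threshold the share of members that rose was thus near the share of all genes, while 0 members fell. The unadjusted calls among members were mostly upward, whereas those of all genes were nearly even. The 8 genes were 4 accessory subunits of complex I, 3 subunits of complex V and 1 complex I assembly factor, and none of the 4, 9 and 12 tested genes of complexes II, III and IV passed.

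The 4 complex I genes were Ndufa12, Ndufs5, Ndufa10 and Ndufa6. Ndufa12 (NCBI Gene 66414), an accessory subunit of the matrix arm, stood at 49.6 and 50.6 FPKM in DNAM-1+ cells of normal and AML spleen and at 38.2 and 35.9 FPKM in DNAM-1- cells. Both DNAM-1+ libraries were above both DNAM-1- libraries, and the limma coefficient was 0.43 (SE 0.07, adjusted p = 0.00864), the largest of the 8. Ndufs5 (595136), an accessory subunit on the intermembrane-space side, followed the same order, with 51.5 and 51.9 FPKM against 40.0 and 38.1 FPKM. Its coefficient was 0.40 (SE 0.06, adjusted p = 0.00993). Ndufa10 (67273), an accessory subunit of the membrane arm, stood at 55.4 and 49.2 FPKM against 42.0 and 42.3 FPKM, with a coefficient of 0.30 (SE 0.07, adjusted p = 0.0371). For Ndufa6 (67130), a matrix-arm accessory subunit, the levels were 77.2 and 82.1 FPKM against 67.8 and 63.4 FPKM (coefficient 0.28, SE 0.07, adjusted p = 0.0473).

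The 3 complex V genes belong to the rotor ring and to the peripheral stalk. Atp5g3 (228033), 1 of 3 genes for the same c ring protein, stood at 116 and 97.1 FPKM in DNAM-1+ cells of normal and AML spleen and at 97.7 and 79.9 FPKM in DNAM-1- cells. DNAM-1+ cells of AML spleen lay just below DNAM-1- cells of normal spleen, so the subsets overlapped across spleens although the ratio within each spleen was alike (0.24 and 0.28). Its limma coefficient for subset was 0.26 (SE 0.06, adjusted p = 0.0341). Atp5pb (11950), the b subunit of the peripheral stalk, stood at 101 and 89.0 FPKM against 81.5 and 76.5 FPKM (coefficient 0.26, SE 0.06, adjusted p = 0.0385). Atp5j (11957), coupling factor 6 of the same stalk, stood at 131 and 100.2 FPKM against 93.9 and 88.1 FPKM (coefficient 0.33, SE 0.08, adjusted p = 0.0458), with a log2 ratio of 0.48 in normal and 0.18 in AML spleen. Atp5j overlaps Gabpa, a transcription factor gene at 19.3 to 20.6 FPKM in the 4 libraries, below Atp5j in each.

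All 4 peripheral stalk genes (Atp5h, Atp5j, Atp5o and Atp5pb) were higher in DNAM-1+ cells in both spleens, with median log2 ratios of 0.20 and 0.17, and 2 of them, Atp5j and Atp5pb, passed the test. The most abundant of them, Atp5h, had ratios of 0.09 and 0.04. Of the catalytic head, Atp5b, the beta subunit that forms ATP, stood at 215 and 224 FPKM in DNAM-1+ cells of normal and AML spleen and at 197 and 196 FPKM in DNAM-1- cells. Atp5a1, the alpha subunit, stood at 161 and 172 FPKM against 139 and 149 FPKM. The levels of both were higher in each DNAM-1+ library than in either DNAM-1- library, but neither gene passed limma.

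The assembly factor gene Ndufaf8 (208501), which is needed to build complex I, was the eighth, at 16.3 and 19.4 FPKM in DNAM-1+ cells of normal and AML spleen and 13.5 and 14.8 FPKM in DNAM-1- cells. Its coefficient was 0.31 (SE 0.07, adjusted p = 0.0372), although each single ratio had a 95% counting interval that included 0. The 8 assembly factors had median log2 subset ratios of 0.05 (normal spleen) and 0.19 (AML spleen), and Ndufaf8 alone of the 5 tested passed. These calls changed with the settings of the fit. With all protein-coding genes at the same minimum, 14 members rose and 1 fell; with a minimum of 1 FPKM, 3 rose, without the trend of variance with level 1 rose, and with no minimum 0 rose.

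**Figure D3:**
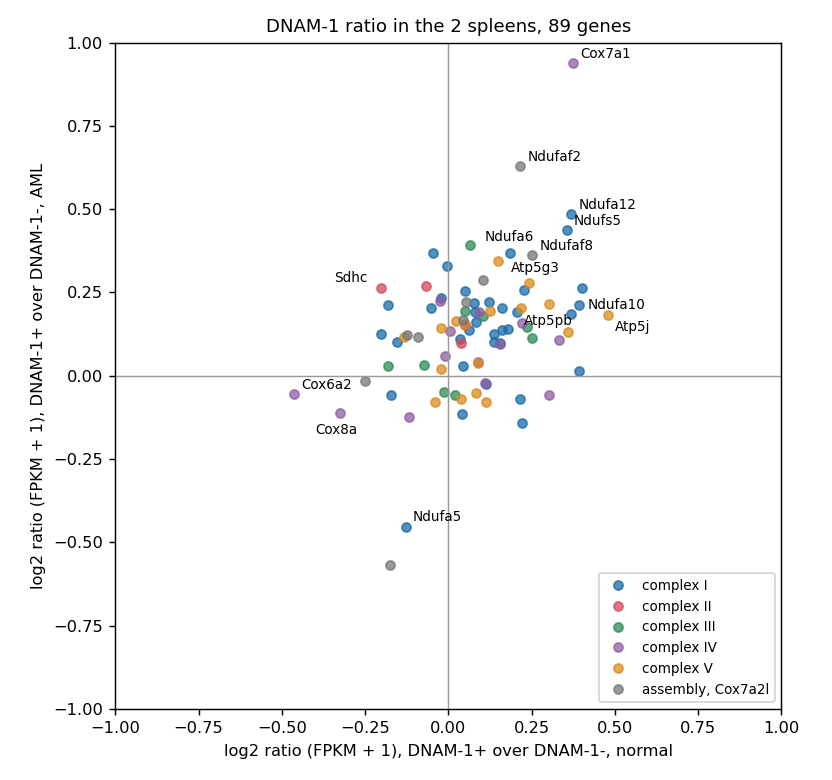
Log2 ratio (FPKM + 1) of DNAM-1+ over DNAM-1- cells in normal spleen (x axis) and in AML spleen (y axis) for the 89 genes, coloured by complex. The upper right part holds 52 genes, among them the 8 that passed limma, and the lower left holds 9; Sdhc lies in the upper left.

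Other genes had subset ratios among the lowest of their complex by the mean of the spleens. Ndufa5, an accessory subunit of complex I, stood at 37.9 and 31.0 FPKM in DNAM-1+ cells of normal and AML spleen and at 41.5 and 42.7 FPKM in DNAM-1- cells, and did not pass limma (adjusted p = 0.0837). It passed with protein-coding genes alone (adjusted p = 0.0394) and with a minimum of 20 FPKM (adjusted p = 0.0429). Ndufb2, another accessory subunit, was listed at 19.1 and 18.6 FPKM against 21.7 and 19.4 FPKM, a difference within counting error in each spleen. In complex IV, Cox6a2 was lowest, at 5.48 and 5.05 FPKM against 7.93 and 5.29 FPKM, within counting error in each spleen. Cox8a stood at 100.2 and 143 FPKM against 126 and 155 FPKM (adjusted p = 0.1), and Cox4i1, the ubiquitous form of subunit 4, at 182.1 and 182.1 FPKM against 198 and 199 FPKM. In complex V, Atp5l, a membrane subunit placed where ATP synthases pair, was at 104 and 91.4 FPKM against 107 and 96.5 FPKM, and Atp5k, its neighbour in the membrane, at 129 and 117 FPKM against 126 and 123 FPKM.

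The other extremes of complexes III and IV were all short of the test. Uqcr10, a small subunit of complex III, stood at 78.2 and 71.5 FPKM in DNAM-1+ cells of normal and AML spleen and at 74.7 and 54.3 FPKM in DNAM-1- cells, so that the lowest of the 4 libraries stood apart. Uqcr11 was at 75.8 and 67.8 FPKM against 64.3 and 61.1 FPKM. At the low end, Uqcrfs1, the Rieske iron-sulfur protein, was at 23.7 and 24.6 FPKM against 27.0 and 24.1 FPKM, and Uqcrb at 102 and 97.2 FPKM against 103 and 100.5 FPKM. Cox7a2 stood at 34.0 and 32.7 FPKM against 26.8 and 30.2 FPKM. It overlaps Tmem30a, which was above it in each library, at 56.9 and 63.1 FPKM against 47.9 and 58.7 FPKM. The part of shared reads in the Cox7a2 values was not tested.

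The AML comparison asked how the same subset differed between leukaemic and normal spleen. The differences were small: 44 of the 89 genes were higher in AML in DNAM-1+ cells and 30 in DNAM-1- cells, where 52.6% and 48.3% of all protein-coding genes at 1 FPKM or more were. In these backgrounds 47.1% and 51.3% of genes were lower. The median log2 ratios were -0.02 and -0.05, against 0.01 and -0.01 over all these genes. In both subsets, 12 of the 89 genes were higher in AML spleen and 27 were lower, against 29.9% and 28.6% of all genes, so the share lower in both (30.3%) was near the background and the share higher in both (13.5%) was below it. Over the 84 genes that reached 5 FPKM, the AML ratios of the 2 subsets had a Pearson correlation of 0.20 and a Spearman rank correlation of 0.08. No member was past 1.5-fold in either subset, where 0.841% of all genes were higher and 1.29% lower in DNAM-1+ cells, and 0.511% higher and 1.16% lower in DNAM-1- cells. None was past 2-fold either, as 0.311% (higher) and 0.346% (lower) of all genes were in DNAM-1+ cells and 0.193% and 0.397% in DNAM-1- cells. By limma, 0 of the 84 members rose and 0 fell with AML, against 0.0661% and 0.287% of all genes. At an unadjusted p below 0.05, 3 members were higher and 7 lower, against 5.42% and 7.1%.

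**Figure D4:**
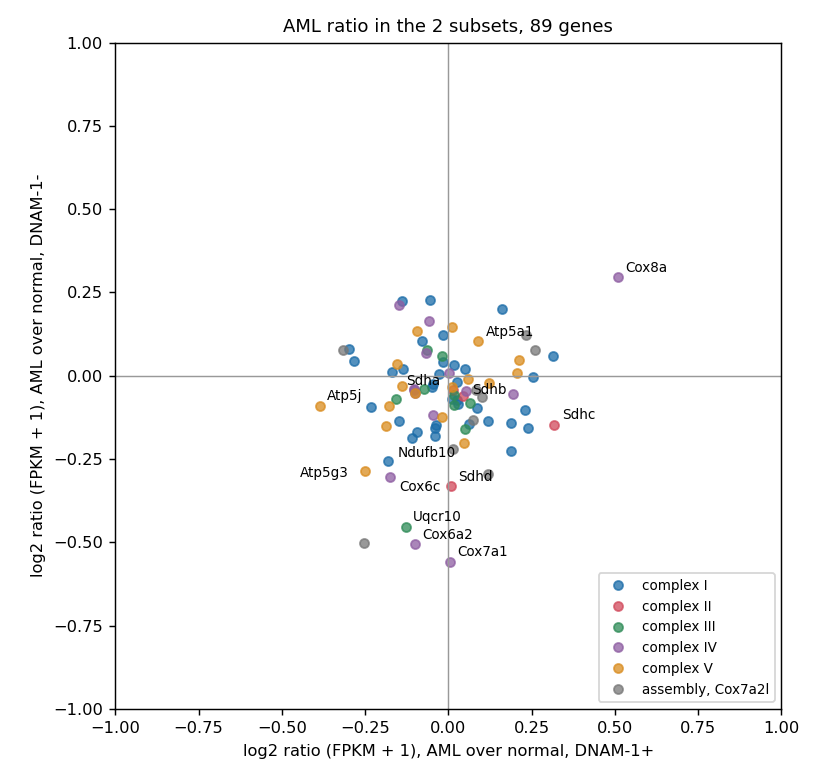
Log2 ratio (FPKM + 1) of AML over normal spleen in DNAM-1+ cells (x axis) and in DNAM-1- cells (y axis) for the 89 genes, coloured by complex. Most genes lie close to 0; Cox8a lies apart in the upper right (0.51 and 0.30), and all 4 complex II genes lie right of the vertical line and below the horizontal one.

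Cox8a (12868), the ubiquitous form of a small complex IV subunit, had the highest AML ratio of its complex. It stood at 100.2, 126, 143 and 155 FPKM, so both AML libraries were above both normal libraries. The log2 ratio was 0.51 in DNAM-1+ cells (95% counting interval 0.34 to 0.68) and 0.30 in DNAM-1- cells, and the limma coefficient was 0.40 (SE 0.07, unadjusted p = 0.00122, adjusted p = 0.109). With protein-coding genes alone the adjusted p was 0.0308, and with a minimum of 20 FPKM it was 0.0403. The median of complex IV was -0.06 for DNAM-1+ and -0.04 for DNAM-1- cells. Lowest of the complex by the mean of the subsets was Cox6a2, with log2 ratios of -0.10 and -0.51, both within counting error.

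Atp5g3 had the lowest AML ratio of complex V by the mean of the subsets, with log2 ratios of -0.25 for DNAM-1+ and -0.29 for DNAM-1- cells (limma coefficient -0.27, adjusted p = 0.189). Its partners encode an identical mature c ring protein behind different import sequences. Atp5g1 stood at 37.5, 38.1, 37.8 and 37.3 FPKM, and Atp5g2 stood at 97.5, 107, 101 and 92.9 FPKM, with AML log2 ratios of 0.05 for DNAM-1+ and -0.20 for DNAM-1- cells. The share of Atp5g3 in the 3 genes' sum was therefore highest in DNAM-1+ cells of normal spleen, at 46.1%, 40.2%, 41.2% and 38.0%. The sum itself was 251, 243, 236 and 210.1 FPKM. Because the mature part is shared, reads that fall in similar sequence may have been split between these genes by estimation.

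**Figure D5:**
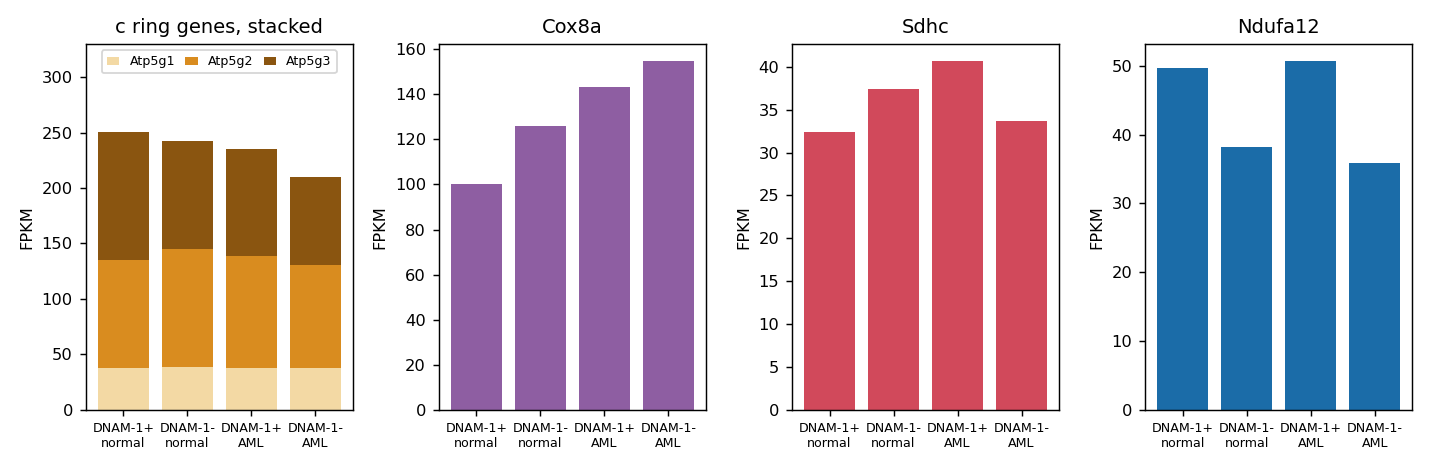
FPKM in the 4 libraries of the c ring genes (stacked), Cox8a, Sdhc and Ndufa12, with axes from 0 and no error bars since each group is 1 library. Atp5g3 is the part of the c ring sum that varies most, Cox8a is highest in the AML libraries, Sdhc is highest in DNAM-1+ AML cells, and Ndufa12 is higher in both DNAM-1+ libraries.

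All 4 peripheral stalk genes were lower in AML spleen in both subsets, with median log2 ratios of -0.14 and -0.09, and none passed the test. Atp5j had the lowest mean of the 2 ratios, at -0.39 for DNAM-1+ and -0.09 for DNAM-1- cells. By the mean of the subsets, Atp5d, the delta subunit of the rotor, was the highest of complex V in this contrast, at 99.3, 101, 115 and 104 FPKM, and overlaps Cbarp. In complex I, by the same mean, Ndufa2 was highest at 27.9, 29.0, 34.9 and 30.2 FPKM, and overlaps Tmco6. Ndufb10, an accessory subunit, was lowest of complex I by that mean, at 71.5, 69.7, 63.0 and 58.2 FPKM. Its log2 ratios were -0.18 for DNAM-1+ and -0.26 for DNAM-1- cells. In DNAM-1+ cells alone, Ndufv2 (-0.30), Ndufa5 (-0.28) and Ndufs1 (-0.23) were lower. In complex III, Uqcr10 had log2 ratios of -0.13 for DNAM-1+ and -0.45 for DNAM-1- cells, and Uqcrq, which overlaps Gdf9, was at 53.5, 52.7, 52.8 and 54.9 FPKM.

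The 4 genes of complex II, which is also succinate dehydrogenase of the citric acid cycle, shared a sign pattern. In DNAM-1+ cells all 4 had higher values in AML spleen, and in DNAM-1- cells all 4 had lower values. Signs that differ between the subsets were common. Of all protein-coding genes at 1 FPKM or more, 29.9% were higher in AML in both subsets and 28.6% were lower in both. Of the 7 core genes of complex I, 4 were higher in AML in DNAM-1+ cells and 6 lower in DNAM-1- cells (medians 0.03 and -0.14). Among the complex II genes, Sdha, the flavoprotein, differed least, at 64.7, 63.0, 65.4 and 61.1 FPKM. Sdhb, the iron-sulfur protein, was at 55.6, 53.7, 57.3 and 51.5 FPKM. For both of them every AML ratio was within 0.06 of 0 on the log2 scale and within counting error. Sdhc, a membrane anchor, stood at 32.4, 37.4, 40.6 and 33.7 FPKM, so the subset with the higher level was DNAM-1- in normal and DNAM-1+ in AML spleen. Its log2 subset ratio was -0.20 (95% counting interval -0.33 to -0.08) in normal and 0.26 (0.14 to 0.39) in AML spleen. Sdhd, the other anchor, stood at 22.1, 23.2, 22.2 and 18.2 FPKM, with 3 libraries alike and DNAM-1- AML cells lower. None of the 4 genes passed limma for subset or spleen, and with 1 library per group the difference between the spleens could not be tested.

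The DNA just upstream of the genes was read from the RefSeq promoter table (GRCm38.p6), which gives 250 bases before to 50 bases after each listed start and held 79 windows for 74 of the 89 genes. Nuclear respiratory factor 1 (NRF1) and the ETS-family factor GABPA are known activators of respiratory chain genes, as are YY1 and the estrogen-related receptors. The NRF1 core (GCGCA, then any base, then GCGC), searched like the others on both strands, occurred in 20 of 79 member windows (25.3%) and in 6.38% of 21263 windows of protein-coding genes. The ETS core CCGGAAG occurred in 19 windows (24.1%, against 11.6% of all), the YY1 motif AAGATGGCG in 8 (10.1% against 1.83%) and the estrogen-related receptor motif TCAAGGTCA in 2 (2.53% against 0.334%). Among windows of genes expressed in these libraries, the shares were 10.3%, 18.7%, 3.19% and 0.264%. The ETS core ends in the letters that begin the YY1 motif, so these matches can overlap. A match is a description of letters and not a binding site.

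Of the 8 genes that rose, 5 (Atp5g3, Ndufs5, Ndufa6, Atp5j and Ndufaf8) had a window with a match to at least 1 of these motifs. Windows of Ndufa12, Ndufa10 and Atp5pb held none. Matches were not confined to genes that rose. Of all 74 genes with a window, 25.7% held the NRF1 core and 25.7% the ETS core. The YY1 motif was held by 10.8% and the estrogen-related receptor motif by 2.70% of them. These are shares for single motifs, and the share of the 74 genes with any match was not computed. The 5 of 8 genes therefore cannot be compared with them. Matched windows of the 5 genes are printed with that of Cox8a, the gene with the highest AML ratio of complex IV, to show which motif each carries. Each runs 5′ to 3′ along the gene's own strand, with matched letters in capitals. Atp5g3 (chr2:73911277-73911576, minus strand) holds an NRF1 core and, nearer its 5′ end, the estrogen-related receptor motif, both on the opposite strand. Ndufs5 (chr4:123718137-123718436, minus strand) and Ndufa6 (chr15:82354242-82354541, minus strand) each hold 1 NRF1 core, on the printed strand in Ndufs5 and on the opposite strand in Ndufa6. Atp5j (chr16:84834927-84835226, minus strand, 1 of 2 listed windows) and Ndufaf8 (chr11:120098684-120098983, plus strand) each hold an ETS core and a YY1 motif. Cox8a (chr19:7217567-7217866, minus strand) holds 2 ETS cores on the opposite strand.
Atp5g3: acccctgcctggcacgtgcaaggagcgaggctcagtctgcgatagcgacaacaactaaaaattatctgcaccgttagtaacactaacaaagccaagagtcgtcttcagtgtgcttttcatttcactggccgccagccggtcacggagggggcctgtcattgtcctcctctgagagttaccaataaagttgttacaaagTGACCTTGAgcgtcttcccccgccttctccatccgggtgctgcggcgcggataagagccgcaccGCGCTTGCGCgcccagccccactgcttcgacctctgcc
Ndufs5: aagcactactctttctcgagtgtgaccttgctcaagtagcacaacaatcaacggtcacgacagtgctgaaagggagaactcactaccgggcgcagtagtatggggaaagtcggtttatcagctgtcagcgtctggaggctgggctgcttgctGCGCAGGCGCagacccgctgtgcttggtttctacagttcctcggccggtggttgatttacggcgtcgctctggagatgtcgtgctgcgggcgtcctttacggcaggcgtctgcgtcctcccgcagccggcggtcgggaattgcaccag
Ndufa6: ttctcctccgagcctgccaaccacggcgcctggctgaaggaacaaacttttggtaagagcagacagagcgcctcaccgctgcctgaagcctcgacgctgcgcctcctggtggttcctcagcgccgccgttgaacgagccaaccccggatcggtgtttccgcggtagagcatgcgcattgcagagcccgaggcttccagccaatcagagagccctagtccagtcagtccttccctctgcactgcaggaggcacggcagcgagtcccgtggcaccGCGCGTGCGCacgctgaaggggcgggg
Atp5j: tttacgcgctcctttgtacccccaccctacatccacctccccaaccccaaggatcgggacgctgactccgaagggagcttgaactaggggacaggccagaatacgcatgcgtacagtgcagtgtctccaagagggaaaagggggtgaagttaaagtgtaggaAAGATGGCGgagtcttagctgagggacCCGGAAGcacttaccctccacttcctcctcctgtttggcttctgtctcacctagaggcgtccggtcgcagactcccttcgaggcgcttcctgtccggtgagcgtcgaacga
Ndufaf8: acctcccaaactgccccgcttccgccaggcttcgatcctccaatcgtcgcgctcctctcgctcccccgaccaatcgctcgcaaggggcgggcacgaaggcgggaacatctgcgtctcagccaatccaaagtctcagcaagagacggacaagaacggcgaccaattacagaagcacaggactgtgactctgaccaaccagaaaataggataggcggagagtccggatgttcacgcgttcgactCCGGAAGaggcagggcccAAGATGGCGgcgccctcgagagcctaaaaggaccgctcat
Cox8a: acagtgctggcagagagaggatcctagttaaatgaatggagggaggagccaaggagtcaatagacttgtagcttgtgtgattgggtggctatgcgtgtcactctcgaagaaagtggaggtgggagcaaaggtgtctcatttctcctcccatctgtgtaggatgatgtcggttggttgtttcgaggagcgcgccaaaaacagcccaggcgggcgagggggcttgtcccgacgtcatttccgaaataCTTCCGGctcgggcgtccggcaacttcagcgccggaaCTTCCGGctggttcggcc

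Other mitochondrial genes gave a setting for these values. Of 33 tested assembly factors of the respiratory complexes other than Ndufaf1 to Ndufaf8, 1 rose in DNAM-1+ cells and 1 fell. The median log2 subset ratios of this list were 0.00 in normal and 0.05 in AML spleen. Cox19, a copper-handling factor of complex IV, rose, at 14.2, 11.3, 16.0 and 12.9 FPKM (limma adjusted p = 0.0399). Taco1, which aids translation of a mitochondrial complex IV subunit, fell, at 8.03, 10.6, 6.82 and 10.2 FPKM (adjusted p = 0.0284). Of 17 citric acid cycle genes, Idh3a, of the NAD-dependent isocitrate dehydrogenase, rose at 18.5, 15.7, 19.5 and 14.7 FPKM (adjusted p = 0.0432), and the list's median log2 subset ratios were 0.12 and 0.07. Of 8 tested genes for ATP and phosphate exchange or uncoupling, Vdac1, the outer-membrane channel, rose at 33.9, 27.3, 35.2 and 24.2 FPKM (adjusted p = 0.0177), with list medians of 0.11 and 0.14. None of 9 tested genes for mobile carriers and coenzyme Q synthesis, 15 biogenesis regulators or 24 protein import genes passed for subset, with medians of 0.03 and 0.00, 0.01 and -0.01, and 0.07 and 0.08. No gene of these 6 lists passed limma for AML.

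Cell-cycle genes moved with the subset by far more than the respiratory chain. Of 15 tested, 13 rose in DNAM-1+ cells, with median log2 subset ratios of 1.09 (normal spleen) and 1.01 (AML spleen) and summed levels of 525, 279.9, 391 and 237 FPKM. Their part in the smaller respiratory chain difference was not tested.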

How the data were processed

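Gene expression was measured by RNA-seq of total RNA on BGISEQ-500, 1 library per group. The deposited values are FPKM per gene, per the file headers, and each file lists only genes above 0, so an absent gene was taken as 0. Bowtie2 2.2.5 and RSEM are named in the submitters' processing notes without their roles; build and annotation are not given in the sources used here. Depth was estimated from the steps between low FPKM values of microRNA genes 55 to 100 bases long (91.9% to 95.6% of values came out as whole reads within 0.1). Fragment counts and 95% counting intervals follow from this depth and from 1 transcript length per gene. That length was of the shortest protein-coding GENCODE transcript, with those matched to RefSeq preferred, and may differ from the length behind the deposited values.

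Log2 ratios used a pseudocount of 1 FPKM. limma 3.58.1 (R 4.3.3), tested on simulated data, was fitted with trend and additive subset and spleen terms, two-sided, to genes that reached 5 FPKM in at least 1 library, with Benjamini-Hochberg adjustment over all 9074. The labels do not say that libraries are from separate animals, so p-values measure only the spread between these libraries. Genes were named by rule: in each complex the highest level, the 2 highest and 2 lowest subset ratios and the extreme AML ratios; all calls; complex II; isoform families; members past 1.5-fold or next to the minimum. Genes outside it (among them Ndufa11, Ndufaf6, Ndufs1, Ndufv2, Atp5a1, Atp5b, Atp5o and those of other lists) were chosen after their values were seen. The members and lists were chosen with earlier results of these data known. Alternatives changed the pseudocount, the minimum, the trend, the scaling and the genes fitted. Of 89 members, 28 overlap another RefSeq gene, 14 a protein-coding one.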

Additional observations from a re-analysis of the deposited data

Results flagged for a closer look

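Sdhc, a membrane anchor of complex II, was the member whose ratios went opposite ways in the 2 groups of a contrast, each beyond its counting interval. Its log2 DNAM-1 ratio in AML spleen was 0.466 above that in normal spleen, and its log2 AML ratio in DNAM-1- cells minus that in DNAM-1+ cells was -0.466, which is the same difference seen from the other side. With 1 library in each group the difference was not tested.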

How the results depend on the processing

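No paired analysis was possible because the labels give no replicate numbers; the spleen term of the model already compares the subsets within each spleen. Leaving out a replicate was likewise not possible. All medians, for the whole set and by complex, kept their direction under every alternative run, and no result reversed. Those that moved by over 1.5 times were close to 0: with scaled libraries the subset median in normal spleen was -0.032 for complex II and 0.031 for complex III, and with assembly factors counted in, the AML median of complex I for DNAM-1+ cells was -0.002. Counts of calls did move, and the cause was not tested. The 8 members that rose with DNAM-1 became 3 with a minimum of 1 FPKM, 0 with no minimum (where limma called 0 of 17723 genes), 1 without the trend, 12 with a minimum of 20 FPKM and 14 with protein-coding genes only. The 0 that fell became 1 (Ndufa5), and the 0 that rose with AML became 1 (Cox8a), with a minimum of 20 FPKM and with protein-coding genes only. Of the 8 calls, 5 were lost with a minimum of 1 FPKM, 7 without the trend, 8 with no minimum, 2 with a pseudocount of 5 FPKM and 1 with scaled libraries; none was lost with a pseudocount of 0.1 FPKM or protein-coding genes only. With a minimum of 20 FPKM, Ndufaf8 was below the minimum and not tested, and the other 7 calls were kept. Of the other lists, the 1 assembly factor and the 1 citric acid cycle gene that rose became 0 with a minimum of 1 FPKM, no minimum and no trend. The 1 assembly factor that fell became 0 with no minimum. With a minimum of 20 FPKM all of these counts are 0 because Cox19, Idh3a and Taco1 lie below it in every library and were not tested. In addition, 1 carrier gene fell with protein-coding genes only. The 1 exchange gene that rose became 2 with a minimum of 20 FPKM, with scaled libraries and with protein-coding genes only, and 0 with no minimum and without the trend. Ndufaf2, the 1 member past 1.5-fold in AML spleen, was lost (0) with a pseudocount of 5 FPKM and when members were limited to 20 FPKM or more. Depth limits single ratios: the median member rests on 354 fragments.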
